A study of Sus scrofa with 9 samples.

Results

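Glycogen synthesis and breakdown were followed through 9 transcripts of pig liver: GYS2, GBE1, GYG2, UGP2, PGM1, PYGL, PPP1R3B, PPP1R3C and PPP1R3G. They were chosen by gene symbol, and all 9 were found among the 29837 symbols of the deposited count table. RNA sequencing had been done on livers of 2-year-old female pigs, 4 of them MIDY and 5 wild type (WT). The MIDY line models mutant INS gene-induced diabetes of youth through a transgene for insulin with the C94Y change. Diabetic animals were given short and long acting insulin by day, so the transgene, the diabetes and the insulin treatment cannot be told apart, and the labels give neither the promoter of the transgene nor the feeding state at sampling. WT pigs carry no transgene. Each library carries its own animal number in the labels, and litter and sampling day are not given there.

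Liver stores glucose after a meal as glycogen, a branched polymer, and releases it again between meals. Insulin favours storage by removing phosphate from glycogen synthase and glycogen phosphorylase, whereas glucagon and adrenaline act the other way through a cascade of kinases. Much of this control therefore acts on the enzymes themselves, and transcript levels give only the supply of message for them.

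GYS2, the liver glycogen synthase that extends the polymer, was the only one of the 9 transcripts that was called: it rose in MIDY liver to 831 ± 115 CPM (SD, n = 4), against 410 ± 55.8 CPM (SD, n = 5) in WT liver. CPM is the count divided by the TMM-scaled library size, times 1e6, and it is not divided by transcript length, so levels of different genes are not compared here. The branching enzyme, the glycogenin primer, the enzymes that supply UDP-glucose and the phosphorylase that removes glucose from the polymer were not called. The 3 subunits that bring protein phosphatase 1 to glycogen spanned 2.37-fold to 16.3-fold between pigs of the same group and were not called either. Thus 1 of 9 rose and 0 fell at an edgeR adjusted p below 0.05, where 1.17% of the 14100 genes tested were called, 0.816% higher and 0.355% lower.

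All 9 passed the filter on low counts, with 1180 to 90030 reads each over the 9 libraries. The fitted log2 fold change was above 0 for 8 of the 9, with a median of 0.15, while 49.3% of all genes tested were above 0 and their median was -0.0046. At an unadjusted p below 0.05 there were 2 of the 9, GYS2 and UGP2, beside 16.1% of all genes. MIDY and WT levels did not overlap for 1 of the 9, GYS2, beside 6.35% of all genes.

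**Figure D1:**
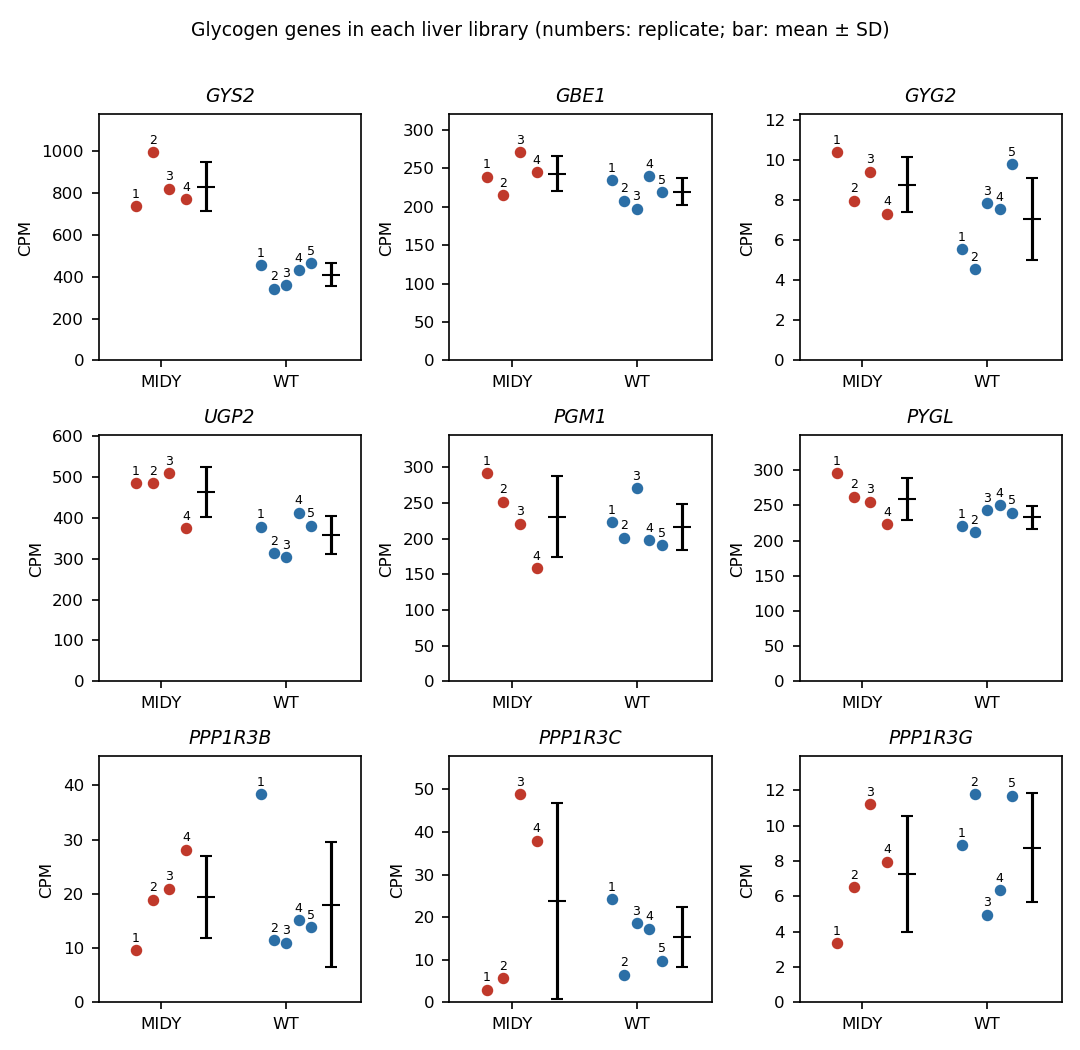
TMM-scaled CPM (y axis, linear from 0, own scale in each panel) of the 9 glycogen transcripts in every library, with MIDY livers (n = 4) in red and WT livers (n = 5) in blue; small numbers are replicate numbers and black bars are mean ± SD. All 4 MIDY livers lie above all 5 WT livers for GYS2 and for no other panel, and PPP1R3C spans 2.99 to 48.9 CPM within MIDY.

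The libraries held 14819335 to 18708976 counts in MIDY and 14115415 to 19533463 counts in WT. Hepatocyte markers (ALB, TTR, APOA1 and 5 others) summed to 137978 to 168345 CPM in MIDY livers and 114126 to 169465 CPM in WT livers, and 0 of 8 were called. For this and the next lists, the shares over all genes tested were 0.816% called higher and 0.355% called lower. In the stellate cell or fibroblast list 1 of 6 fell (COL1A2), with sums of 208 to 346 CPM in MIDY and 316 to 527 CPM in WT, and in the lymphocyte list 1 of 4 tested fell (CD2), with sums of 7.67 to 9.86 CPM in MIDY and 12.2 to 18.3 CPM in WT. No marker was called among 6 endothelial, 6 macrophage, 5 biliary, 3 erythroid and 2 adipocyte genes tested. Their sums were 594 to 684 CPM in MIDY and 573 to 682 CPM in WT for endothelial cells, 274 to 342 and 300.0 to 480 CPM for macrophages, and 20.6 to 28.9 and 18.5 to 29.9 CPM for biliary epithelium, with MIDY before WT in each pair. Erythroid sums were 161 to 535 CPM in MIDY and 68.7 to 1488 CPM in WT, and adipocyte sums were 3.54 to 5.37 CPM in MIDY and 2.32 to 2.77 CPM in WT. In whole tissue, fewer cells of a type and less RNA per cell cannot be told apart. The part of these markers in the results on glycogen genes was not tested.

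GYS2 lies on chromosome 5 (51862952 to 51915153 on Sscrofa11.1), where no other gene model overlaps it. It had 737, 996, 820 and 770 CPM in the 4 MIDY livers, against 455, 343, 359, 430 and 464 CPM in the 5 WT livers. The lowest MIDY liver thus lay above the highest WT liver, and the spread within each group was small, with a coefficient of variation of 13.9% in MIDY and 13.6% in WT. Raw reads were 11806, 14344, 15565 and 14690 in MIDY and 6540, 6857, 5197, 6824 and 8207 in WT, so counting error is minor beside the spread between pigs. The log2 fold change was 1.02 ± 0.13 (SE), a fold of 2.03, with a 95% interval of 0.73 to 1.31 on the log2 scale (edgeR quasi-likelihood test, Benjamini-Hochberg adjusted p = 0.00451). By p-value GYS2 ranked 12 among the 165 called genes. Its call held in all 17 alternatives tried, with an adjusted p of at most 0.0291 and a log2 fold change of 0.92 to 1.07 over the 9 fits that left out a library.

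Both partners of the synthase in building the polymer stayed without a call. GBE1, the branching enzyme (chromosome 13, 173634401 to 173909646), had 240, 216, 271 and 246 CPM in MIDY livers, against 234, 208, 198, 240 and 219 CPM in WT livers. The groups overlapped, and the log2 fold change of 0.15 ± 0.10 (SE) had a 95% interval of -0.08 to 0.37, all of it below the interval of GYS2 (edgeR adjusted p = 0.528). A pseudogene model, LOC102159217, lies inside the span of GBE1 and had 510 reads in all. GYG2, which in humans is the liver form of glycogenin, the self-glucosylating primer of new glycogen particles (chromosome X, 52310 to 89412), had 10.4, 7.98, 9.43 and 7.34 CPM in MIDY livers and 5.56, 4.55, 7.87, 7.57 and 9.83 CPM in WT livers. WT replicates 1 and 2 were the lowest of the 9 and the other WT livers lay within the MIDY range. The log2 fold change of GYG2 was 0.31 ± 0.21 (SE; edgeR adjusted p = 0.498).

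UDP-glucose, the sugar donor of the synthase, is made from glucose 1-phosphate by the product of UGP2, and PGM1 interconverts glucose 1-phosphate and glucose 6-phosphate. UGP2 (chromosome 3, 77975450 to 78032471) had 484, 484, 509 and 374 CPM in MIDY livers, against 378, 314, 303, 412 and 381 CPM in WT livers. MIDY replicates 1 to 3 lay above every WT liver, and MIDY replicate 4 lay within the WT range. The log2 fold change was 0.37 ± 0.13 (SE) with a 95% interval of 0.09 to 0.65 that takes no account of the number of genes, and the edgeR adjusted p of 0.185 missed the threshold. Over the 9 fits that left out a library, the log2 fold change of UGP2 was 0.32 to 0.46 (edgeR adjusted p of 0.0945 to 0.388). The highest fold change and the lowest adjusted p came without MIDY replicate 4. The span of UGP2 is overlapped by VPS54, whose log2 fold change was 0.10 ± 0.11 (SE), and by LOC106507380, which had 31 reads in all.

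PGM1 (chromosome 6, 148851183 to 148918891) had 292, 252, 221 and 159 CPM in MIDY livers and 223, 201, 270, 198 and 191 CPM in WT livers. The MIDY livers held both the highest and the lowest of the 9 values, and the log2 fold change was 0.09 ± 0.17 (SE; edgeR adjusted p = 0.844). Its sign turned without MIDY replicate 1, to -0.041.

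PYGL, the liver phosphorylase that releases glucose 1-phosphate from glycogen (chromosome 1, 180645849 to 180704124), had 296, 262, 255 and 223 CPM in MIDY livers, against 220, 212, 243, 250 and 239 CPM in WT livers. MIDY replicates 1 to 3 lay above every WT liver, as for UGP2, and MIDY replicate 4 lay within the WT range. The log2 fold change was 0.15 ± 0.11 (SE) with a 95% interval of -0.08 to 0.38, which also lies below the interval of GYS2 (edgeR adjusted p = 0.512). ABHD12B overlaps the span of PYGL and had 4 reads in all. PYGL and GBE1 varied least among the 9 genes, with coefficients of variation of 11.5% and 9.45% in MIDY and 6.94% and 8.03% in WT.

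**Figure D2:**
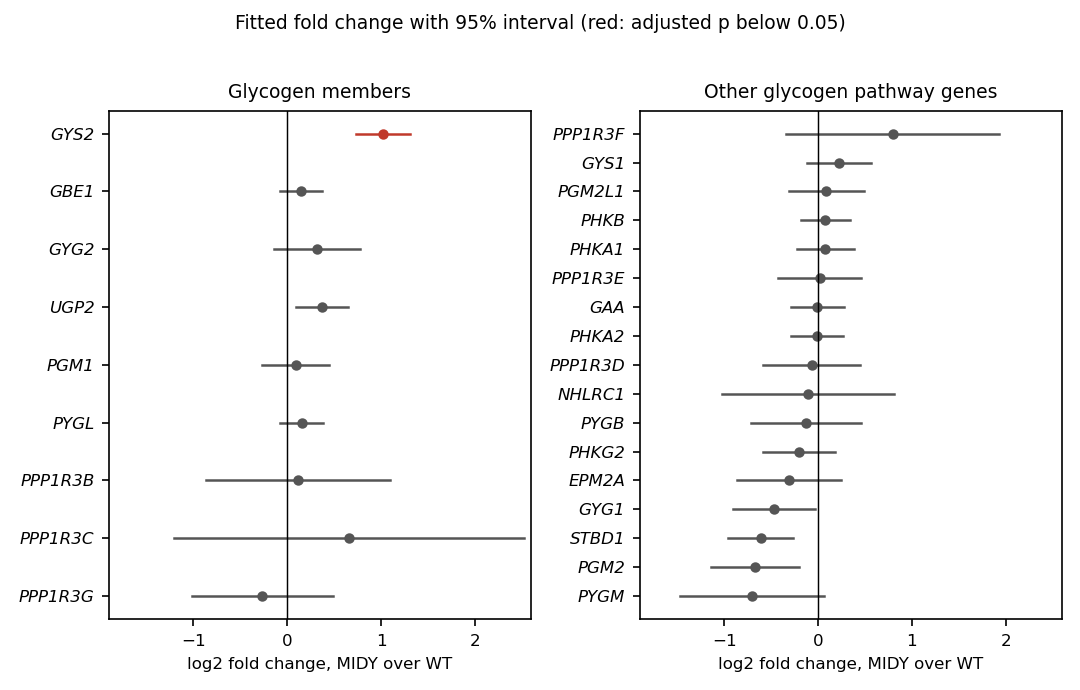
Fitted log2 fold change of MIDY over WT (x axis) with its 95% interval for the 9 glycogen genes (left) and 17 of the 18 tested genes of the other glycogen pathway list (right); red marks an edgeR adjusted p below 0.05. GYS2, at 1.02, is the only red point, and PPP1R3C has the widest interval, -1.21 to 2.53.

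The rise of GYS2 was set against its partners within each library, where scaling and transcript length cancel from the difference between groups. GYS2 had 2.49, 3.79, 3.22 and 3.45 reads per PYGL read in the 4 MIDY livers, against 2.07, 1.62, 1.48, 1.72 and 1.94 in the 5 WT livers. Every MIDY liver had more GYS2 reads per PYGL read than any WT liver, and the mean log2 ratio was higher by 0.87, at 1.68 ± 0.26 (SD, n = 4) in MIDY and 0.81 ± 0.20 (SD, n = 5) in WT. The exact two-sided permutation test gave p = 0.00794, the smallest that the splits of 9 libraries allow, and 0.0119 adjusted over the 3 ratios examined.

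Against the branching enzyme the picture was alike. GYS2 had 3.08, 4.62, 3.02 and 3.14 reads per GBE1 read in MIDY livers, against 1.94, 1.65, 1.82, 1.79 and 2.11 in WT livers. The mean log2 ratio was higher by 0.88 (1.77 ± 0.29 in MIDY, SD, n = 4, and 0.89 ± 0.13 in WT, SD, n = 5; exact permutation p = 0.00794, adjusted p = 0.0119). MIDY replicate 2 was the highest of the 9 in both ratios. Both ratios hold GYS2, whose rise was known when they were chosen, so they show that its change was larger than that of PYGL and of GBE1 and add no separate evidence that it rose.

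**Figure D3:**
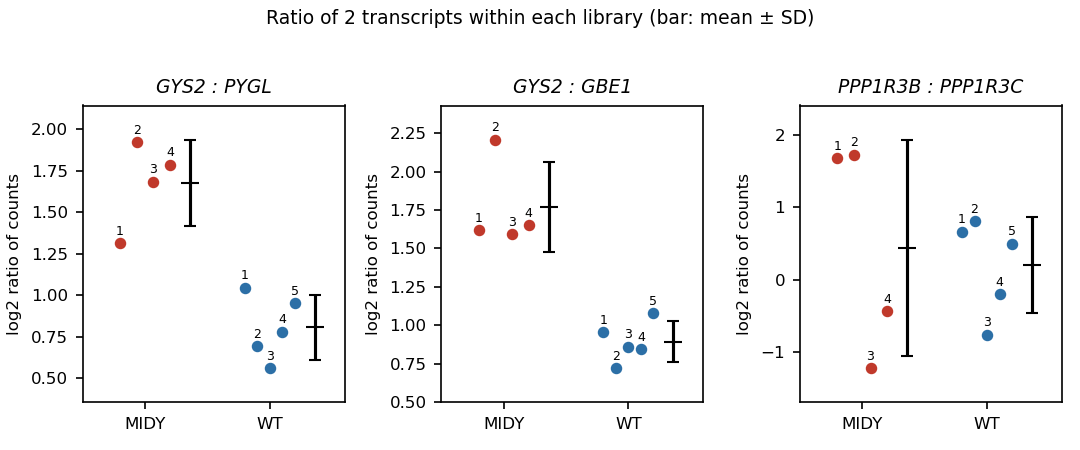
Log2 ratio of read counts of 2 transcripts within each library (y axis) for GYS2 to PYGL, GYS2 to GBE1 and PPP1R3B to PPP1R3C, with MIDY livers (n = 4) in red, WT livers (n = 5) in blue, replicate numbers beside the points and mean ± SD as bars. The groups are apart in the first 2 panels and overlap in the third, where MIDY livers span -1.22 to 1.73.

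PPP1R3B, PPP1R3C and PPP1R3G encode subunits that hold protein phosphatase 1 on glycogen, where it removes phosphate from the synthase and so activates it. PPP1R3B is the form known as GL in liver, PPP1R3C is also called protein targeting to glycogen, and PPP1R3G is known from mouse liver, where fasting and feeding change its level. All 3 were measured at 2.99 to 48.9 CPM. Coefficients of variation were 39.1 to 96.4% in MIDY and 35.2 to 64.2% in WT for the 3 subunits, against 9.45 to 24.4% in MIDY and 6.94 to 29.3% in WT for the 6 enzymes.

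PPP1R3C (chromosome 14, 103273401 to 103278757) had 2.99, 5.69, 48.9 and 37.9 CPM in MIDY livers, against 24.2, 6.55, 18.6, 17.3 and 9.83 CPM in WT livers. MIDY replicates 1 and 2 lay below every WT liver and MIDY replicates 3 and 4 above every WT liver, a 16.3-fold range within MIDY and a 3.70-fold range within WT. Raw reads in MIDY were 48, 82, 928 and 723, so the gap within the group is far beyond counting error. No MIDY liver lay near the mean of the group, 23.9 CPM, and the log2 fold change of 0.66 ± 0.81 (SE; 95% interval -1.21 to 2.53; edgeR adjusted p = 0.745) leaves changes within that interval, downward or upward, undetected. Without MIDY replicate 3 it was 0.044, and without MIDY replicate 1 it was 1.03.

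PPP1R3B (chromosome 15, 56002383 to 56013477) had 9.67, 18.9, 21.0 and 28.1 CPM in MIDY livers, against 38.4, 11.5, 11.0, 15.1 and 13.9 CPM in WT livers. WT replicate 1 was the highest of all 9, and MIDY replicates 2 to 4 lay above the other 4 WT livers. The log2 fold change was 0.12 ± 0.43 (SE; edgeR adjusted p = 0.927), and without WT replicate 1 it was 0.59 (edgeR adjusted p = 0.296), which is still no call. It was -0.12 without MIDY replicate 4 and just below 0 without WT replicate 2 or WT replicate 3.

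PPP1R3G (chromosome 7, 3049153 to 3059840) had 3.37, 6.52, 11.2 and 7.97 CPM in MIDY livers and 8.90, 11.8, 4.97, 6.37 and 11.7 CPM in WT livers. The groups overlapped, with MIDY replicate 1 the lowest of the 9, and the log2 fold change of -0.27 ± 0.34 (SE; edgeR adjusted p = 0.755) was the only negative value among the 9 genes. LYRM4 spans PPP1R3G and had 281 reads in all, with a log2 fold change of 0.18 ± 0.25 (SE). MIDY replicate 1 was the lowest MIDY liver in all 3 subunits.

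The balance of PPP1R3B to PPP1R3C reads was 3.21, 3.32, 0.429 and 0.742 in MIDY livers, against 1.59, 1.75, 0.592, 0.873 and 1.41 in WT livers. MIDY livers thus held both the highest and the lowest balance, and the difference in mean log2 ratio of 0.24 was within the spread (0.44 ± 1.50 in MIDY, SD, n = 4, and 0.20 ± 0.66 in WT, SD, n = 5; exact permutation p = 0.754, adjusted p = 0.754). Leaving out MIDY replicate 1, MIDY replicate 2 or WT replicate 3 turned its sign, to between -0.19 and -0.0047.

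**Figure D4:**
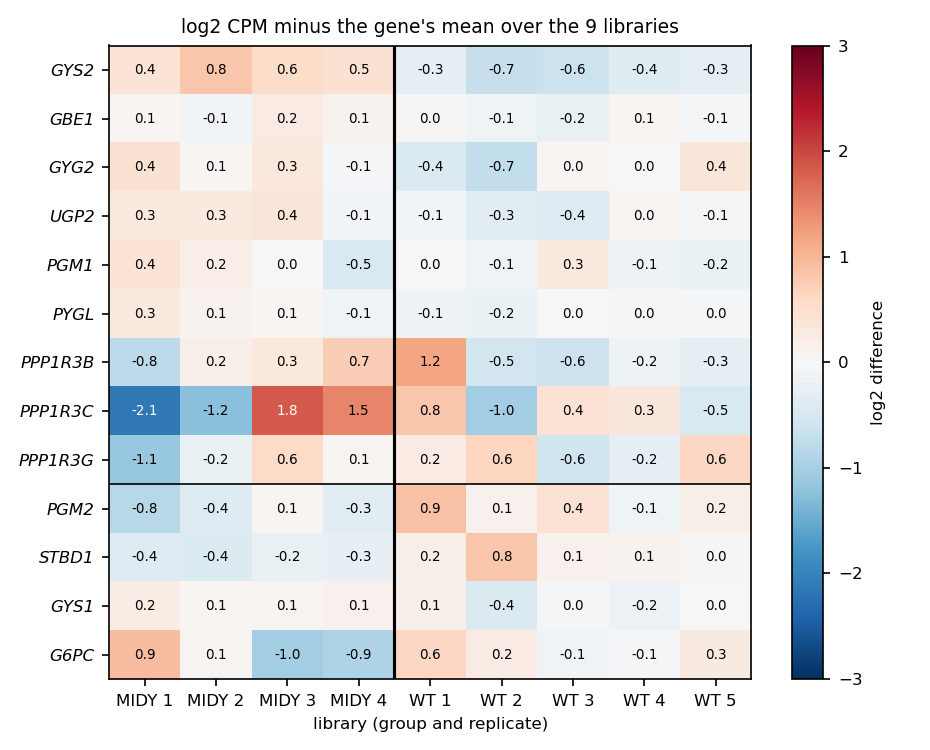
Log2 CPM minus the gene's mean over the 9 libraries (colour and printed value, prior count 2) for the 9 glycogen genes, above the line, and 4 related genes, below it; columns are MIDY replicates 1 to 4 and then WT replicates 1 to 5. GYS2 is above its mean in all 4 MIDY livers and below it in all 5 WT livers, while PPP1R3C splits the MIDY livers into replicates 1 and 2, below, and 3 and 4, above.

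The G6PC transcript also varied among the MIDY livers. G6PC, the phosphatase that frees glucose for release, had 1065, 594, 271 and 297 CPM in MIDY livers, against 860, 665, 523, 536 and 675 CPM in WT livers. Here MIDY replicates 3 and 4, the high pair of PPP1R3C, lay below every WT liver, and the log2 fold change was -0.23 ± 0.39 (SE; edgeR adjusted p = 0.834). The split between these MIDY livers was seen in their values and was not tested.

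Of the other glycogen pathway genes, 18 of 20 listed were tested and 0 were called in either direction; 12 of the 18 had a fitted value below 0, with a median log2 fold change of -0.09. At an unadjusted p below 0.05 there were 3, STBD1, PGM2 and GYG1, all lower in MIDY, a share near the 16.1% of all genes tested. DESeq2, which called 4.62% of the 13822 genes to which it gave an adjusted p, called 1, STBD1. STBD1, which anchors glycogen to membranes, had 18.2, 18.2, 20.5 and 20.1 CPM in MIDY livers, against 27.3, 42.8, 26.1, 25.8 and 24.7 CPM in WT livers. It was the one gene of the 18 whose groups did not overlap, where 6.35% of all genes tested did not, and its log2 fold change was -0.61 ± 0.16 (SE; edgeR adjusted p = 0.0889; DESeq2 adjusted p = 0.0234). Of the kinase that activates phosphorylase, the subunits PHKA2, PHKB and PHKG2 had log2 fold changes of -0.011 ± 0.13, 0.077 ± 0.12 and -0.20 ± 0.18 (SE; edgeR adjusted p = 0.977, 0.809 and 0.622).

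No tested paralog of the 9 genes was called. GYS1, the synthase of muscle and most other tissues, averaged 5.90 ± 0.33 CPM in MIDY (SD, n = 4) and 5.08 ± 0.76 CPM in WT (SD, n = 5), with a log2 fold change of 0.22 ± 0.16 (SE; edgeR adjusted p = 0.528). PYGM, the muscle phosphorylase, and PYGB, the brain form, had log2 fold changes of -0.70 ± 0.35 and -0.13 ± 0.27 (SE; edgeR adjusted p = 0.355 and 0.868). Both were low, with 134 reads of PYGM and 285 of PYGB in all. GYG1, the glycogenin of most tissues, and PGM2, which acts mainly on ribose and deoxyribose phosphates, had -0.47 ± 0.20 and -0.67 ± 0.22 (SE; edgeR adjusted p = 0.270 and 0.163). Of the remaining phosphatase subunits, PPP1R3A, the form of skeletal muscle, had 0 reads in all libraries, and PPP1R3D, PPP1R3E and PPP1R3F had log2 fold changes of -0.07 ± 0.24, 0.02 ± 0.20 and 0.79 ± 0.53 (SE), none called. PPP1R3F was near the floor, with 72 reads in all. Of 7 muscle markers in the table, MYH7, TNNC2 and TNNT3 were at 0 in all libraries and all 7 together summed to 0.499 to 2.53 CPM in MIDY and 0.441 to 0.600 CPM in WT. MYBPC1 gave most of the MIDY sum, with 8, 24, 47 and 34 reads in MIDY livers, against 3 to 8 reads in WT livers. The difference in response between GYS2 and its paralog GYS1 was not tested.

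Among 24 tested genes that act on the synthase, the phosphorylase or their signals, 0 rose and 1 fell, beside the same 0.816% and 0.355% over all genes tested, with a median log2 fold change of 0.0065. At an edgeR unadjusted p below 0.05 there were 5 of the 24, beside 16.1% of all genes. Groups did not overlap for 2 of the 24, beside 6.35% of all genes. The count of genes that fell was 0 on leaving out any single library other than WT replicate 3. INSR, the insulin receptor, averaged 247 ± 17.3 CPM in MIDY (SD, n = 4) and 184 ± 12.7 CPM in WT (SD, n = 5), with no overlap (log2 fold change 0.42 ± 0.10 SE), and just missed the threshold (edgeR adjusted p = 0.0549). PPP1CB, a catalytic subunit of protein phosphatase 1, and PRKAA2, a catalytic subunit of AMP-activated kinase, had log2 fold changes of 0.29 ± 0.13 and 0.24 ± 0.09 (SE; edgeR adjusted p = 0.277 and 0.242). GSK3B, a kinase that inactivates the synthase, had 92.9, 81.3, 83.0 and 77.0 CPM in MIDY livers and 89.4, 79.2, 82.9, 84.8 and 80.9 CPM in WT livers, with a 95% interval for the log2 fold change of -0.20 to 0.20.

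In the list of glucose phosphate supply and use, 1 of 14 tested genes rose and 0 fell, beside 0.816% higher and 0.355% lower over all genes tested, with a median log2 fold change of 0.0067. At an edgeR unadjusted p below 0.05, in either direction, there were 7 of the 14, beside 16.1% of all genes. Groups did not overlap for 3 of the 14 (FBP1, SLC37A4 and GPI), beside 6.35% of all genes. FBP1, the fructose bisphosphatase of gluconeogenesis, had 559, 469, 409 and 315 CPM in MIDY livers, against 222, 176, 262, 274 and 241 CPM in WT livers (log2 fold change 0.90 ± 0.17 SE; edgeR adjusted p = 0.0273). All MIDY livers were above all WT livers; the call was lost without MIDY replicate 1, 2 or 3 or WT replicate 2, 3 or 5 (edgeR adjusted p of 0.0100 to 0.0860 over the 9 fits). SLC37A4, which carries glucose 6-phosphate into the endoplasmic reticulum, and GPI, which converts it to fructose 6-phosphate, had log2 fold changes of 0.73 ± 0.19 and 0.50 ± 0.15, and SLC37A2, a related carrier, had -1.03 ± 0.28 (SE; edgeR adjusted p = 0.0945, 0.123 and 0.0956). Without WT replicate 1, SLC37A4 was called (edgeR adjusted p = 0.0304). In the other 8 fits that left out a library it was not called, with an edgeR adjusted p of up to 0.239.

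The 4 genes whose profile over the 9 libraries lay nearest to that of GYS2 were SEC16A, AASS, KLHL3 and SLC25A42. Likeness was the root mean square distance between log2 CPM profiles centred on each gene's mean, taken over 8635 named genes with a mean of at least 5 CPM. Their distances were 0.148 to 0.167 log2 units, against a median of 0.564 over all candidates. AASS, which opens lysine breakdown, averaged 369 ± 68.4 CPM in MIDY (SD, n = 4) and 205 ± 34.8 CPM in WT (SD, n = 5), and in MIDY replicate 2 lay 0.84 above its mean on the log2 scale. The remaining genes were SEC16A, of vesicle export from the endoplasmic reticulum (87.6 ± 4.47 and 49.4 ± 6.32 CPM), KLHL3, a ubiquitin ligase adaptor (115 ± 10.3 and 58.5 ± 6.77 CPM), and SLC25A42, a mitochondrial coenzyme A carrier (10.2 ± 2.93 and 4.93 ± 0.77 CPM), each in MIDY and then WT (SD, n = 4 and 5). These genes were picked for likeness, so their differences are given with no test.

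**Figure D5:**
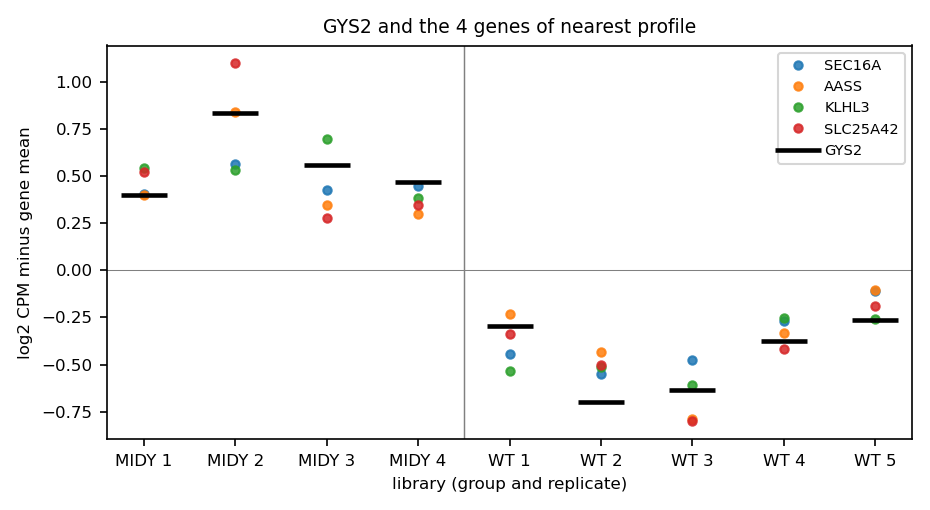
Log2 CPM minus the gene's mean over the 9 libraries (y axis) for GYS2 (black bars) and the 4 genes of nearest profile (coloured points) in MIDY replicates 1 to 4 and WT replicates 1 to 5. All 5 genes are above 0 in each MIDY liver and below 0 in each WT liver, and GYS2 was highest in MIDY replicate 2.

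For PYGL the nearest profiles were those of CHTF8, AP2M1 and WDR7, at distances of 0.0403 to 0.0498 log2 units against a median of 0.239. Their log2 fold changes were 0.11, 0.18 and 0.21, beside 0.15 for PYGL itself. Because they were picked for likeness to PYGL, this closeness follows from the choice and is given with no test.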

How the data were processed

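Per the labels' protocols, Trizol was used for RNA isolation and the Encore Complete system of Nugen for libraries, after ribosomal depletion. STAR, HTSeq, DESeq2 and the build Sscrofa11.1 are named in the submitters' processing notes; no version, annotation release or strand setting is given there. The deposited values are raw read counts for each gene symbol, which the authors did not normalize. The table held 0 unused columns. Overlaps were taken from whole gene spans, not from exons. Without a strand setting, whether overlapping genes share reads is not known and was not tested. Beyond the glycogen genes, this limit covers GPI with LOC110260979 (2285 reads in all) and SLC37A2 with TMEM218 (1571 reads). It also covers PRKAA2 with C6H1orf168 (4594 reads) and PPP1R3D with FAM217B (292 reads).

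The table was fitted whole with edgeR 4.0.16 in R 4.3.3: filterByExpr on the group (14100 genes kept), TMM factors, robust quasi-likelihood fit without covariates, two-sided p-values adjusted by Benjamini-Hochberg over all genes tested, called below 0.05. A standard error is the fold change over the root of its F statistic, and 95% intervals use the fit's total degrees of freedom, for each gene singly. Ratios added 0.5 to each count. Positions are from RefSeq, which matched all 29837 symbols. Alternatives were RLE factors, total counts, the 10 most abundant genes taken out, no filter, at least 1 CPM in 4 libraries, DESeq2 1.42.0, limma 3.58.1 voom with sample weights, each library left out, WT replicates 1 and 2 left out together, and 5 added to each count of a ratio. The tests were tried on simulated data.

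Named genes are all 9 glycogen genes, their paralogs and fixed partners, and of each list the called genes and up to 4 with the smallest p. Some genes that this rule names are not reported here. Members, lists, ratios and alternatives were chosen with earlier results of these data known.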

Additional observations from a re-analysis of the deposited data

Results flagged for a closer look

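In 6 of the 66 sets of replicate values examined, 1 library stood apart from its group by Dixon's test, which chance gives in about 1 of 20 sets. PPP1R3B had 38.4 CPM in WT replicate 1, with the next WT library at 15.1 CPM. STBD1 had 42.8 CPM in WT replicate 2, against 27.3 CPM in the next, and GYG1 had 7.39 CPM in that library, against 5.08 CPM in the next. PHKA2 was lowest there, at 36.9 CPM, with the next WT library at 45.5 CPM. PYGM had 1.59 CPM in WT replicate 3, against 0.999 CPM in the next. SLC37A2 had 3.26 CPM in MIDY replicate 2, against 1.69 CPM in the next MIDY library. With single libraries left out, log2 fold changes were -0.67 to -0.43 for STBD1 and -0.59 to -0.32 for GYG1. They were -0.94 to -0.51 for PYGM and -1.32 to -0.92 for SLC37A2, and none of these genes was called in those fits. The ranges of PPP1R3B and PHKA2 are given below.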

How the results depend on the processing

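GYS2 was called higher, and no other of the 9 glycogen genes in either direction, under all 17 alternatives. Both GYS2 ratios stayed past the threshold under all 11 of theirs. Their groups did not overlap, so fits without some libraries could only return the smallest p that the remaining splits allow. That outcome is therefore no separate check. With single libraries left out, the difference in mean log2 ratio was 0.79 to 0.99 for PYGL and 0.73 to 0.93 for GBE1. Over all genes, 355 rose and 284 fell with DESeq2, 81 fell with voom, 42 rose and 24 fell without WT replicates 1 and 2, and 34 to 152 rose and 4 to 107 fell with single libraries left out. In the regulator list 1 gene (INSR) rose with total counts, DESeq2 or voom; 0 fell with total counts, voom or without WT replicates 1 and 2, and 0 to 1 with single libraries left out. In the supply list 2 rose and 1 fell with DESeq2, 0 rose without WT replicates 1 and 2, and 0 to 2 rose with single libraries left out. In the other pathway list 1 gene fell with DESeq2.

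With single libraries left out, log2 fold changes crossed 0 for PGM1 (-0.041 to 0.23), PPP1R3B (-0.12 to 0.59), G6PC (-0.75 to 0.0020), GSK3B (-0.053 to 0.032), PHKA2 (-0.12 to 0.063), PPP1R3D (-0.17 to 0.13), PPP1R3E (-0.097 to 0.17) and PYGB (-0.26 to 0.061), as did the log2 ratio of PPP1R3B to PPP1R3C (-0.19 to 0.79); none was called. GSK3B was also below 0 with RLE (-0.00028), the 10 most abundant genes taken out (-0.0041), the 1 CPM filter (-3.98e-05), DESeq2 (-0.00016) and voom (-0.0097). PHKA2 was above 0 with total counts (0.014) and voom (0.043), and PPP1R3D without WT replicates 1 and 2 (0.19). The causes were not tested. No paired analysis was possible because the labels give the groups no shared replicate numbers. With 4 and 5 pigs, changes in the phosphatase subunits within their wide intervals were not detectable.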
